A study of Mus musculus with 18 samples.

Results

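Endothelin-1 and nitric oxide set the tone of the glomerular tuft against each other, and 9 genes of the 2 systems were followed in sorted glomerular cells. The 9 genes are the peptide ligands *Edn1*, *Edn2* and *Edn3*, the converting enzyme gene *Ece1*, the receptors *Ednra* and *Ednrb*, the endothelial nitric oxide synthase gene *Nos3*, and *Gucy1a3* and *Gucy1b3*, which encode the subunits of soluble guanylate cyclase. They were chosen by name and matched by gene symbol, and each had 1 transcript cluster among the 28856 of the array, 25254 of which carry a symbol. *Edn1* is cluster 10404783, *Edn2* 10507692, *Edn3* 10479165, *Ednra* 10579812, *Ednrb* 10422164, *Ece1* 10509441, *Nos3* 10520126, *Gucy1a3* 10498952 and *Gucy1b3* 10498935. In current RefSeq naming *Gucy1a3* is *Gucy1a1* and *Gucy1b3* is *Gucy1b1*.

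The 18 Affymetrix Mouse Gene ST arrays fall into 6 groups of 3, made of endothelial cells, mesangial cells and podocytes from *Cd2ap* mutant and wild type mice of 5 weeks of age. *Cd2ap* encodes an adapter protein of the podocyte slit diaphragm, and mice without it develop nephrotic syndrome and glomerulosclerosis. The mutant strain is B6.129X1-Cd2ap tm1Shaw/J, and in both genotypes the cells were sorted by FACS on a reporter transgene, *Tie2-GFP* for endothelium, *Meis1-GFP* for mesangium and a further GFP line for podocytes. Each sort is thus as pure as the promoter of its reporter and the gate allow. The mesangial controls are labelled wild type, although the column names of their arrays carry +/-, which marks all 3 as heterozygous. The column names of the endothelial and podocyte controls carry +/+. Comparisons of mesangial with other cells, among cells called wild type here or between genotype effects, thus also differ in the control genotype. The parts of cell type and control genotype in them cannot be told apart. The labels give triplicates and do not tie arrays to single animals, so the p-values below measure the spread between these arrays. The 3 arrays of each group carry the letters A, B and C here, and a letter does not connect arrays of different groups.

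In the kidney, big endothelin-1 is cleaved by endothelin converting enzyme to the active peptide, which acts close to its source. The type A receptor on mesangial and smooth muscle cells drives calcium entry and contraction, and in podocytes it has been linked to proteinuria. The type B receptor on endothelium clears the peptide and stimulates nitric oxide synthase. Nitric oxide then diffuses to mesangial and smooth muscle cells, where it activates soluble guanylate cyclase, a heterodimer of an alpha and a beta subunit, and the cyclic GMP formed relaxes the cell.

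RefSeq promoter sequences of GRCm38.p6 were matched for 8 of the 9 genes, all but *Nos3*. Shown are the 250 bases before the start site of *Edn1*, the gene with the widest difference between genotypes in endothelium, and of both cyclase subunits, whose signals moved together across the arrays and whose genes lie next to each other on chromosome 3, with 0 genes listed between them. *Edn1* lies at chr13:42301226-42301475 on the plus strand, *Gucy1a1* at chr3:82145651-82145900 and *Gucy1b1* at chr3:82074712-82074961, both on the minus strand, and of the 2 start sites given for *Gucy1a1* the first is shown. All are written 5′ to 3′, with capitals for CACCC, the core letters bound by Kruppel-like factors, and for CCAAT, on either strand.
Edn1: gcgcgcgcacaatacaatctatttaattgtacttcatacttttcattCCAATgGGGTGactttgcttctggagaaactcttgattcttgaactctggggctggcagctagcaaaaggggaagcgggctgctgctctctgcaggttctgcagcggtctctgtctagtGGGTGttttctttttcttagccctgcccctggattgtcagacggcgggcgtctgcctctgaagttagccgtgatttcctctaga
Gucy1a1: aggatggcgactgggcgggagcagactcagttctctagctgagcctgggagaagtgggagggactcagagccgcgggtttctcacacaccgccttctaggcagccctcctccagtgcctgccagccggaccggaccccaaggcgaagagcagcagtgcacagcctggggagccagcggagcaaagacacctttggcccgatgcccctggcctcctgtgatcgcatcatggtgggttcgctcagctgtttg
Gucy1b1: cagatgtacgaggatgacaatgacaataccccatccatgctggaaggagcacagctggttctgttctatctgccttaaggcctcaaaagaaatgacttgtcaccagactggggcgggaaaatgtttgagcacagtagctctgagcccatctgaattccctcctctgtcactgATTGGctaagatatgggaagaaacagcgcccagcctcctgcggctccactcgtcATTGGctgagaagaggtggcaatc
The *Edn1* window holds CACCC 2 times and CCAAT 1 time. The *Gucy1b1* window holds CCAAT 2 times, while the *Gucy1a1* window holds neither, so these letters are not shared by the neighbouring genes. CACCC stood in 52.0% and CCAAT in 33.8% of all 32851 promoter windows of this length. AP-1 sites (TGANTCA, in 6.75% of windows), GATA sites (AGATAA, 9.99%) and TATA boxes (TATAAA, 12.4%) were searched on both strands and were not found in any matched window of the 9 genes. The hypoxia response core ACGTG (16.6% of windows) was found only in 1 of the 4 *Ece1* windows. GGGCGG, the GC box (32.7%), occurred 1 time in each of the printed *Gucy1a1* and *Gucy1b1* windows. A match is a description of the letters and no evidence of binding. An absence holds only for these exact letters in the 250 bases before the annotated starts. It does not show that a gene lacks such an element.

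Signals are given on the linear scale of the deposited values. A gene entered a genotype test within a cell type if its signal reached 100 on at least 1 of the 6 arrays, and the tests between cell types and between genotype effects if it did so on at least 1 of the 18. A gene was called where limma's moderated test gave a Benjamini-Hochberg adjusted p under 0.05 over all clusters tested and the fold change was over 1.5. A looser screen, an unadjusted p under 0.05 with the same fold, is named where only it was passed. *Edn2* and *Edn3* were below 100 on all 18 arrays and were not tested. Where a group lies below 100 on most of its arrays, near the array medians, a log2 difference from it gives a direction and is no measure of size, with or without an array left out. Signals of different genes come from different probes and are not set against each other.

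**Figure D1:**
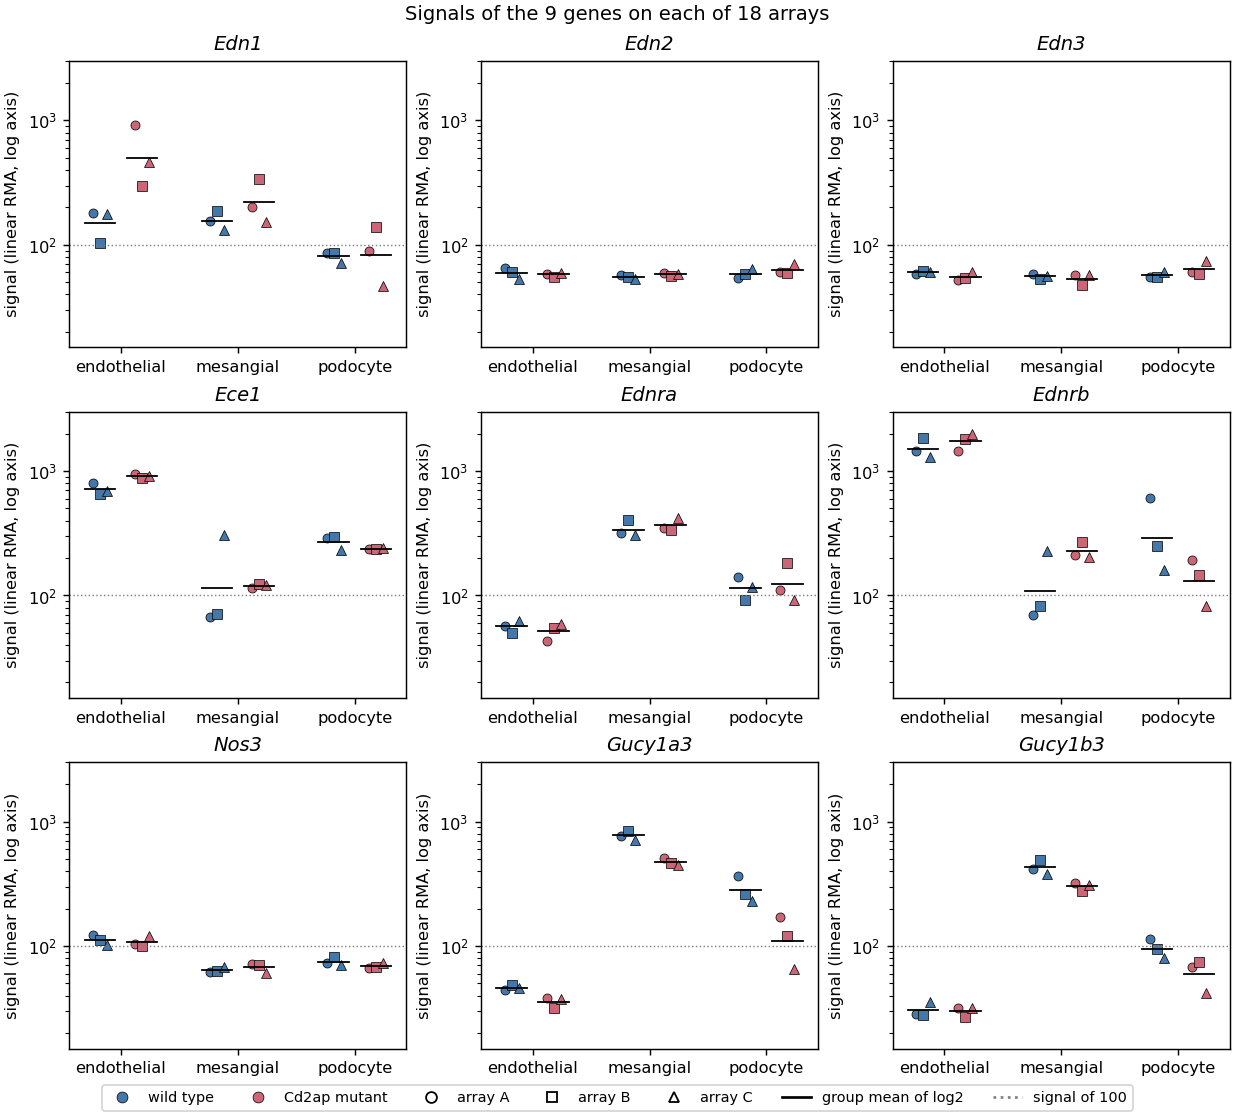
Signal (linear RMA value on a log axis) of each of the 9 genes on 18 arrays, by cell type, with wild type arrays in blue and *Cd2ap* mutant arrays in red. Each point is 1 array, the bar is the mean of the log2 signals of the 3 arrays of a group, and the dotted line is a signal of 100. *Ednrb* and *Ece1* stand highest in endothelium, *Ednra* and both cyclase subunits in mesangial cells, and *Edn1* is split by genotype in endothelium.

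The arrays of a group correlated at r of 0.967 to 0.992, array medians lay between 62.8 and 71.6, and 9697 to 10097 clusters reached 100 on an array. The defining markers followed the sorts. The 12 endothelial markers summed to 17427 to 20162 on endothelial arrays, the 9 mesangial markers to 8969 to 12495 on mesangial arrays and the 10 podocyte markers to 13713 to 16661 on podocyte arrays. Wild type mesangial array C stood apart, with an endothelial sum of 8991, a podocyte sum of 4133, a tubule sum of 1847 over 8 genes and an erythroid sum of 7253 over 4 genes, and the mesangial differences of *Ednrb* and *Ece1*, by genotype and among wild type cells, are given with and without it. *Cd2ap* was lower on all mutant than on all wild type arrays in mesangial cells (797 to 870.4 against 922 to 1123) and in podocytes (1478 to 1512 against 1546 to 2108), but not in endothelium (891 to 966 against 757 to 859), and none of these differences was called. The endothelial arrays are therefore taken as labelled, with no check of the genotype from *Cd2ap* itself.

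*Edn1*, the vasoconstrictor peptide of endothelium, had the widest genotype difference of the 9 genes, and it lay in the endothelial cells. The endothelial mutant arrays A, B and C gave 911, 300.0 and 465. The wild type endothelial arrays gave 181, 103 and 176. All 3 arrays labelled mutant lay above all 3 wild type arrays, though the mutant arrays spread over a wider range than the wild type ones. The means were 559 ± 316 and 153 ± 43.5 (SD, n = 3 each), a 3.38-fold difference of the log2 means (log2 fold change 1.76, SE 0.39, adjusted p = 0.0816, 95% confidence interval 0.85 to 2.66). *Edn1* thus passed the screen (unadjusted p = 0.00208) and missed the adjusted threshold. Without endothelial mutant array B, the lowest of the 3, it was called (log2 fold change 2.13, adjusted p = 0.0301), and over all arrays left out in turn the log2 fold change ran from 1.33 to 2.13, with adjusted p of 0.0301 to 0.228.

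Immediate early genes that respond to tissue dissociation followed a like order over these arrays. The 11 genes of that list, among them *Fos*, *Egr1* and *Atf3*, summed to 5042, 3775 and 4869 on endothelial mutant arrays A, B and C and to 4272, 3324 and 4033 on the wild type arrays. Array B was the lowest of its group in both *Edn1* and this sum for each genotype. The sums of the genotypes overlapped, while 3 of the 11 genes, *Egr1*, *Ier3* and *Dusp1*, were higher on all mutant than on all wild type endothelial arrays and none was lower on all. Here and below, the share of all clusters that separate the genotypes in this way is not given. Such counts describe the marker lists and do not show an excess over all clusters. *Egr1* read 257, 148 and 311 on mutant and 145, 144 and 134 on wild type arrays, and *Ier3* read 292, 148 and 213 against 141, 102 and 129. Endothelial marker sums were also higher on every mutant array, at 19454 to 20162 against 17427 to 18952, with 5 of the 12 markers higher on all mutant arrays and 7 overlapping. The 9 mesangial markers, at most 2 of them at 100 or more, summed to 1123, 805 and 851 on mutant and 799, 769 and 799 on wild type arrays. Of them *Serpine2* was higher on all mutant arrays (467, 177 and 250.5 against 119, 95.4 and 131), *Des* was lower on all and 7 overlapped. The 9 leukocyte markers summed to 758, 591 and 468 on mutant and 462, 516 and 517 on wild type endothelial arrays. Of them 2 were higher on all mutant arrays, 2 were lower on all and 5 overlapped. The part of these lists in the *Edn1* difference was not tested.

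In mesangial cells *Edn1* read 203, 338 and 154 on mutant and 155, 187 and 133 on wild type arrays. These ranges overlapped, and the difference was not called (log2 fold change 0.49, SE 0.29, adjusted p = 0.376, 95% confidence interval -0.19 to 1.17). With arrays left out in turn it ran from 0.18, without mutant array B, to 0.74, without mutant array C, and was not called. The 9 leukocyte markers summed to 496, 813 and 437 on mutant and 455, 424 and 909 on wild type mesangial arrays, and all 9 overlapped. Their part in the mesangial *Edn1* values was not tested. Podocytes gave 89.6, 140.1 and 46.6 on mutant and 85.7, 86.5 and 71.9 on wild type arrays, most of them below 100 (log2 fold change 0.05, SE 0.36, adjusted p = 0.965). Only 1 of the 6 podocyte arrays, mutant B, reached 100.

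Among wild type cells *Edn1* did not separate endothelium from mesangium (log2 fold change -0.07, SE 0.41, adjusted p = 0.919). Wild type podocytes lay below both, without a call in the fit over 18 arrays: against endothelium the adjusted p was 0.116 and against mesangium 0.107, and in a fit of the 9 wild type arrays alone these were 0.00951 and 0.00935, with both called. Among mutant cells each step was called, with endothelium above mesangium, although mutant mesangial array B lay above mutant endothelial array B (log2 fold change 1.20, adjusted p = 0.0375) and mesangium above podocytes (log2 fold change -1.39, adjusted p = 0.0140 for podocytes minus mesangial cells). Whether the genotype effect on *Edn1* differed between cell types was tested directly, with +/- controls in mesangial cells and +/+ controls in the others. The effect was larger by 1.71 on the log2 scale in endothelium than in podocytes (SE 0.58, adjusted p = 0.101) and by 1.27 than in mesangial cells (SE 0.58, adjusted p = 0.297), and neither was called.

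The other ligands stayed near the floor of the arrays. *Edn2* read 52.8 to 69.8 and *Edn3*, which is best known in the enteric nervous system and in melanocytes, 47.3 to 74.6 over the 18 arrays, around the array medians. *Edn1* was therefore the single ligand gene of the family with a signal of 100 or more in these cells.

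*Ece1* encodes the membrane protease that releases the active peptide, and it was an endothelial gene here. Wild type endothelial arrays read 806, 656 and 685, wild type podocyte arrays 291, 296 and 230.1 and wild type mesangial arrays 67.4, 71.2 and 307. Endothelium lay above podocytes (log2 fold change 1.40, SE 0.38, adjusted p = 0.00855) and above mesangial cells (log2 fold change 2.65, SE 0.38, adjusted p = 5.25e-05), and both were called. Podocytes were called above mesangial cells as well (log2 fold change 1.25, SE 0.38, adjusted p = 0.0240), although mesangial array C, at 307, lay above all 3 podocyte arrays. This last call was lost with no signal minimum (adjusted p = 0.0526), in the fit of 9 wild type arrays (adjusted p = 0.0806) and without mesangial wild type array A or B or podocyte wild type array A or B (log2 fold change 0.87 to 1.20, adjusted p = 0.0646 to 0.126). Without mesangial wild type array C both steps above mesangial cells were called, for podocytes (log2 fold change 1.97, adjusted p = 1.04e-08) and for endothelium (log2 fold change 3.36, adjusted p = 4.63e-11), with mesangial arrays A and B below 100. Endothelial marker sums were 4962 to 6580.5 on wild type podocyte arrays and 3584 and 3948 on mesangial arrays A and B, and their part in the podocyte and mesangial levels was not tested. Among mutant arrays the same order of 3 cell types was called at each step, with the narrowest margin between podocytes and mesangial cells (log2 fold change 0.99, adjusted p = 0.0493).

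By genotype, endothelial *Ece1* read 953, 872 and 911 on mutant arrays, all above the wild type arrays, with a fold difference of 1.28 that passed neither rule (log2 fold change 0.36, SE 0.11, adjusted p = 0.156). Podocyte *Ece1* was 235, 236 and 241 on mutant arrays (log2 fold change -0.19, SE 0.14, adjusted p = 0.562). In mesangial cells the mutant arrays read 115, 123 and 122, between wild type arrays A and B below and array C above. The comparison over all arrays gave a log2 fold change of 0.08 (SE 0.55, adjusted p = 0.954). Without wild type array C *Ece1* was called higher in mutant mesangial cells, against wild type signals below 100 (log2 fold change 0.79, SE 0.09, adjusted p = 0.0141), and without array A or B instead the sign turned, to -0.30 and -0.26.

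*Ednra*, the contractile receptor, belonged to the mesangium. Wild type mesangial arrays read 315, 402 and 305, podocyte arrays 141, 92.1 and 118 and endothelial arrays 57.2, 49.9 and 62.7, and no array of one cell type overlapped with another. Mesangial cells lay 2.94-fold above podocytes (log2 fold change -1.55, SE 0.22, adjusted p = 6.41e-05 for podocytes minus mesangial cells) and were called above endothelium (log2 fold change -2.58, SE 0.22, adjusted p = 1.79e-07 for endothelial minus mesangial cells). Podocytes were called above endothelium as well (log2 fold change -1.03, SE 0.22, adjusted p = 0.00150 for endothelium minus podocytes). The endothelial signals lay below 100 and near the array medians, so no fold is given against them. All 3 steps were called, in wild type and in mutant arrays.

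Mesangial marker genes also gave signal on podocyte arrays. The 9 markers summed to 4729.6, 4158 and 3829.5 on the wild type podocyte arrays, with all 9 at 100 or more, against 769 to 799 on the wild type endothelial arrays. *Pdgfrb* alone read 682, 551 and 482 on those podocyte arrays and 53.2 to 65.0 on the wild type endothelial arrays. Whether these signals and that of *Ednra* came from podocytes or from mesangial cells that passed the GFP sort was not tested. In bulk sorts fewer cells of a type and less RNA per cell cannot be told apart.

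*Ednra* did not separate the genotypes. Mutant mesangial arrays read 350.1, 335 and 419 (log2 fold change 0.12, SE 0.14, adjusted p = 0.676, 95% confidence interval -0.22 to 0.45) and mutant podocyte arrays 111, 181 and 92.7 (log2 fold change 0.09, SE 0.27, adjusted p = 0.902, 95% confidence interval -0.53 to 0.72), with overlap in both cell types. In endothelium the signal was 42.96 to 62.7 over the 6 arrays, below the minimum for a test.

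*Ednrb*, the receptor that clears the peptide, belonged to the endothelium. Its signal was 1451, 1832 and 1296 on wild type endothelial arrays and 1439.7, 1813 and 1989 on mutant ones, so the genotypes overlapped there (log2 fold change 0.20, SE 0.16, adjusted p = 0.542, 95% confidence interval -0.18 to 0.58). Wild type endothelium was called above mesangial cells (log2 fold change 3.79, SE 0.45, adjusted p = 8.96e-06) and 5.20-fold above podocytes (log2 fold change 2.38, SE 0.45, adjusted p = 6.81e-04). The step above mesangial cells was also called without mesangial wild type array C (log2 fold change 4.31, adjusted p = 1.19e-06), where the remaining mesangial signals were below 100 and near the array medians, so no fold is given. *Ednrb* and *Ednra* thus lay in opposite orders over endothelium and mesangium, with 1 receptor high in each.

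Outside endothelium *Ednrb* was lower and varied more. Wild type podocyte arrays read 612, 248 and 161, and mutant podocyte arrays 192, 146 and 81.9. These ranges overlapped, and a 2.20-fold lower mean in mutants passed neither rule (log2 fold change -1.14, SE 0.50, adjusted p = 0.357, 95% confidence interval -2.30 to 0.02). With arrays left out in turn the log2 fold change ran from -1.56 to -0.60, the last without wild type array A (adjusted p = 0.728). Endothelial markers were lower on the same mutant podocyte arrays, with sums of 3197, 1583 and 1112 on mutant arrays A, B and C against 5568, 6580.5 and 4962 on wild type arrays, and 6 to 10 of the 12 markers at 100 or more against 11 to 12. *Cdh5*, the vascular endothelial cadherin, read 813, 929 and 696 on the wild type podocyte arrays and 391, 277 and 123 on the mutant ones. Its part in the *Ednrb* values was not tested.

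In mesangial cells the difference in *Ednrb* had the other sign. Mutant arrays read 213, 268 and 204 and wild type arrays 69.7, 83.0 and 227, so that wild type array C alone lay among the mutant arrays while A and B lay below 100. Over all 6 arrays the mutant mean was higher, which passed the screen and missed the adjusted threshold (log2 fold change 1.05, SE 0.42, adjusted p = 0.217, unadjusted p = 0.0435). Without wild type array C, whose endothelial marker sum was 8991 against 3584 and 3948 for arrays A and B, *Ednrb* was called higher in mutant cells (log2 fold change 1.58, SE 0.15, adjusted p = 0.00774), with both remaining wild type arrays below 100. The mutant arrays had endothelial sums of 3682, 3623 and 3498, within or just below those of wild type arrays A and B. Single markers did not move together over these 5 arrays, since 3 of the 12 were higher on all mutant arrays, 4 were lower on all and 5 overlapped. *Cdh5* read 209, 262 and 96.2 on mutant arrays A, B and C and 99.0 and 121 on wild type arrays A and B, and *Pecam1* read 172, 192 and 90.8 against 82.3 and 107, so both were higher on mutant arrays A and B. *Tek* went the other way, at 398, 323 and 324 against 575 and 784. The part of endothelial RNA in the mesangial *Ednrb* values was not tested.

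The genotype effects of podocytes and mesangial cells on *Ednrb* differed by -2.19 on the log2 scale (SE 0.64, adjusted p = 0.148), and this was called without mesangial wild type array C (-2.72, adjusted p = 0.0277). By genotype the podocyte and mesangial means stood in opposite orders. Wild type podocytes were called above wild type mesangial cells (log2 fold change 1.41, SE 0.45, adjusted p = 0.0342), a call that was lost with no signal minimum (adjusted p = 0.0719), in the fit of 9 wild type arrays (adjusted p = 0.0714) and without mesangial wild type array A or B or podocyte wild type array A or B (log2 fold change 0.87 to 1.52, adjusted p = 0.0553 to 0.165). Without mesangial wild type array C it was called against mesangial signals below 100 (log2 fold change 1.93, adjusted p = 0.00363). Wild type podocyte array C lay below mesangial array C. Among mutant arrays podocytes lay below mesangial cells, without a call (log2 fold change -0.78, adjusted p = 0.187).

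**Figure D2:**
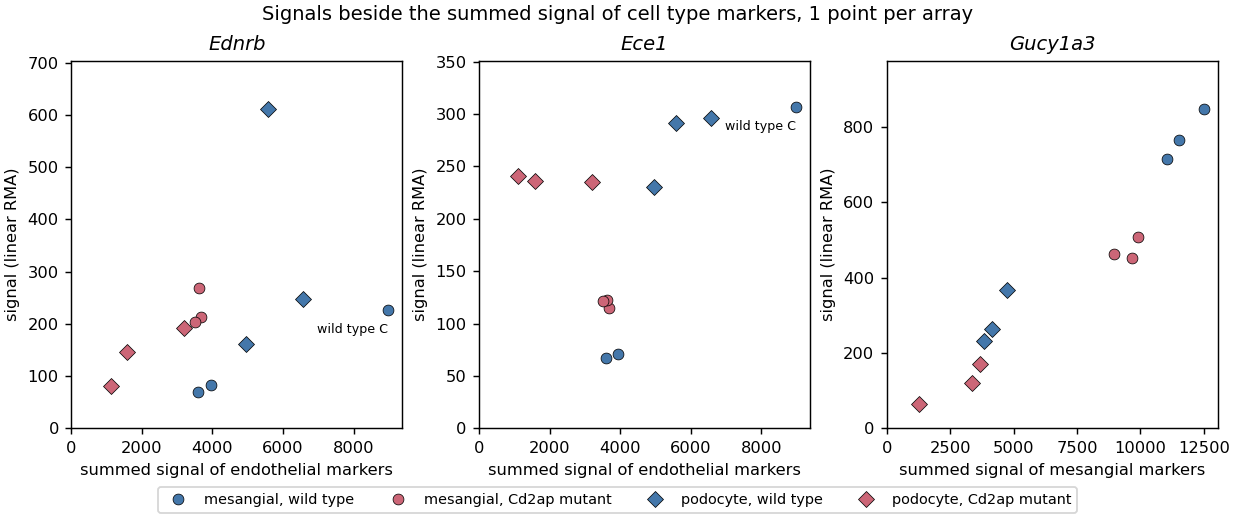
Signal (linear RMA values) of *Ednrb* and *Ece1* beside the summed signal of 12 endothelial markers, and of *Gucy1a3* beside the summed signal of 9 mesangial markers, 1 point per array, for mesangial (circles) and podocyte (diamonds) arrays of both genotypes. Wild type mesangial array C lies far to the right of the other mesangial arrays in the endothelial sum, and the podocyte arrays lie below the mesangial arrays in both *Gucy1a3* and the mesangial sum.

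*Nos3* was dim on these arrays and was seen in endothelium alone. Wild type endothelial arrays read 123, 111 and 102 and mutant ones 104, 99.6 and 120.5, close to the minimum of 100. Mesangial arrays of both genotypes read 60.9 to 71.8 and podocyte arrays 66.8 to 82.3, all below 100. Wild type endothelium was called above mesangial cells (log2 fold change 0.80, SE 0.10, adjusted p = 2.28e-05). Against podocytes the fold stayed under 1.5, without a call (log2 fold change 0.57, SE 0.10, adjusted p = 4.82e-04). With podocyte and mesangial signals below 100, both values give a direction and no size. The fold against podocytes passed 1.5, with a call, when array medians were subtracted, after a further quantile normalization, among mutant arrays, and without endothelial wild type array C or podocyte wild type array B. Podocytes and mesangial cells were both below 100 on every array, so their comparison (adjusted p = 0.132) decides nothing. A fold against signals this close to the floor understates a difference in transcript. The genotypes overlapped in endothelium (log2 fold change -0.05, SE 0.11, adjusted p = 0.842, 95% confidence interval -0.31 to 0.21), and with array medians subtracted the small difference changed sign, to 0.022.

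The cyclase subunits were mesangial genes, and *Gucy1a3* was the 1 gene of the 9 called by genotype. *Gucy1a3*, the alpha subunit, read 765, 847 and 716 on wild type mesangial arrays and 507, 462 and 452 on mutant ones. Every mutant array lay below every wild type array. The means were 474 ± 29.6 in mutant and 776 ± 66.3 in wild type cells (SD, n = 3 each), and *Gucy1a3* fell 1.64-fold (log2 fold change -0.71, SE 0.10, adjusted p = 0.0226, 95% confidence interval -0.94 to -0.48). The size was steady when arrays were left out in turn (-0.77 to -0.64), but with fewer arrays the adjusted p rose to between 0.0226 and 0.0951 and the call was kept in 1 of 6 such fits, that without wild type array C. In 1 fit of all 18 arrays the adjusted p was 0.137.

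*Gucy1b3*, the beta subunit, read 323, 276 and 309 on mutant and 419, 491 and 382 on wild type mesangial arrays. These did not overlap either, with a 1.42-fold lower mean in mutants that passed neither rule (log2 fold change -0.50, SE 0.12, adjusted p = 0.0782). The summed mesangial markers were lower on the mutant arrays as well. The 9 markers, all at 100 or more, summed to 9892, 8969 and 9655 on mutant arrays A, B and C and to 11525, 12495 and 11035 on wild type arrays, but the single markers were divided. Of the 9, 5 were lower on all mutant arrays (*Pdgfrb*, *Itga8*, *Des*, *Gata3* and *Agtr1a*), 3 overlapped (*Cspg4*, *Fhl2* and *Serpine2*) and *Meis1*, the gene of the sort reporter, was higher on all. *Itga8* read 1975, 1886 and 2080.5 against 2892, 3126 and 2904, and *Meis1* 321, 271 and 231 against 209.7, 224 and 189. Their part in the fall of *Gucy1a3* was not tested.

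In podocytes both subunits were lower on mutant arrays by the screen alone. *Gucy1a3* read 171, 120.2 and 65.6 on mutant and 368.03, 264 and 231 on wild type podocyte arrays, without overlap (log2 fold change -1.35, SE 0.34, adjusted p = 0.181, unadjusted p = 0.00469). It was called in 1 fit of all 18 arrays (adjusted p = 0.00627) and without podocyte mutant array A (log2 fold change -1.67, adjusted p = 0.0455), and over all arrays left out in turn the log2 fold change ran from -1.67 to -0.98. *Gucy1b3* read 68.3, 75.1 and 41.8 on mutant and 115, 93.9 and 79.7 on wild type podocyte arrays, most below 100 (log2 fold change -0.67, SE 0.25, adjusted p = 0.293, unadjusted p = 0.0273). The mesangial marker sums of the same arrays were 3666, 3353 and 1254 on mutant and 4729.6, 4158 and 3829.5 on wild type podocyte arrays, lower on every mutant array, with the lowest *Gucy1a3* and the lowest sum both on mutant array C. Of the 9 markers 3 were lower on all mutant podocyte arrays and 6 overlapped. The summed markers of juxtaglomerular and smooth muscle cells went the other way there, with 6 genes summing to 3189.6, 2556 and 1133 on mutant and 906, 871 and 875 on wild type podocyte arrays, and *Ren1*, the renin gene, at 789, 690.5 and 467 against 228, 134 and 228. Of the 6, *Ren1* and *Cnn1* were higher on all mutant podocyte arrays and 4 overlapped, among them *Tagln*, at 900.1, 499 and 96.9 against 122, 118 and 115. The part of RNA from mesangial or smooth muscle cells in the podocyte values of *Gucy1a3*, *Gucy1b3* and *Ednra* was not tested. In mesangial cells the same 6 genes summed to 1761, 2736 and 3011 on mutant and 1689, 1885 and 1524 on wild type arrays.

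Endothelium was at the floor for both subunits. *Gucy1a3* read 32.0 to 48.2 and *Gucy1b3* 26.7 to 35.4 over the 6 endothelial arrays. Wild type mesangial cells were called above endothelium for *Gucy1a3* (log2 fold change -4.06, SE 0.24, adjusted p = 4.14e-09 for endothelial minus mesangial cells) and for *Gucy1b3* (log2 fold change -3.82, SE 0.19, adjusted p = 5.03e-10), against signals at the floor that give no measure of size. Podocytes lay 2.74-fold below mesangial cells for *Gucy1a3* (adjusted p = 3.63e-04) and were called below them for *Gucy1b3*, with 2 of the 3 podocyte signals under 100 (adjusted p = 5.97e-07). Over the 18 arrays the log2 signals of the subunits had an r of 0.97, a description across arrays that share cell types.

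**Figure D3:**
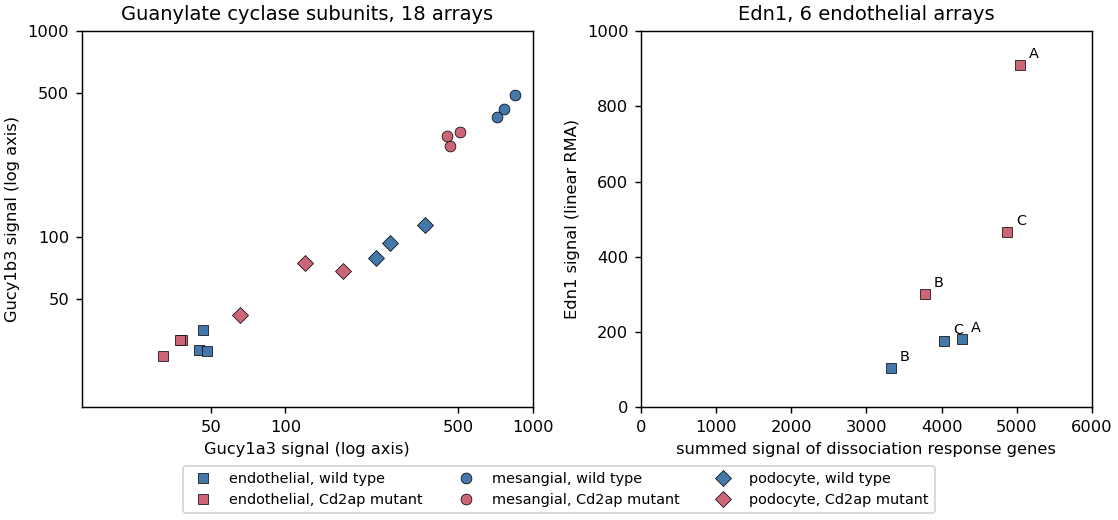
Left, *Gucy1b3* against *Gucy1a3* signal (linear RMA values on log axes) on 18 arrays, by cell type (shape) and genotype (colour). Right, *Edn1* signal against the summed signal of 11 dissociation response genes on the 6 endothelial arrays, labelled A, B and C. The subunits rise together from endothelium over podocytes to mesangial cells, and the 3 mutant endothelial arrays lie above the wild type ones in *Edn1*, with dissociation sums of 3775 to 5042 against 3324 to 4272.

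The counts of calls are set against all genes tested. In mesangial cells 1 of the 6 genes tested was called, lower in mutants, where 2.20% of the 11457 clusters tested were called, and *Ednrb* (higher) and *Gucy1a3* (lower) passed the screen, which 5.19% of clusters did. In podocytes 0 of the 6 genes tested were called, where 0.0578% of 12113 clusters were (7 clusters by limma, of 1729 with an unadjusted p under 0.05), and both cyclase subunits passed the screen, against 5.61% of clusters. In endothelium 0 of the 4 genes tested were called, where 1.13% of 11330 clusters were, and *Edn1* passed the screen, against 3.82%. These totals depend on single arrays: with each array left out in turn 50 to 279 clusters were called in mesangial cells, 0 to 344 in podocytes (344 without mutant array A) and 49 to 217 in endothelium. Of the 7 genes tested, 2 were called higher and 3 lower in endothelium than in podocytes (20.0% of 13523 clusters), 3 higher and 3 lower in endothelium than in mesangial cells (16.2%), and 2 higher and 3 lower in podocytes than in mesangial cells (13.8%). The test of unequal genotype effects called 0 of the 7 genes for endothelium against podocytes (2.01% of clusters called), for endothelium against mesangial cells (1.06%) and for podocytes against mesangial cells (0.717%), and at an unadjusted p under 0.05 with the same fold it passed 3, 1 and 1 of them, against 10.6%, 6.92% and 5.43% of clusters. Of the 3, *Gucy1a3* and *Gucy1b3* were at the floor on all endothelial arrays, where no genotype effect can be measured, so these passes restate the podocyte differences. The same limit holds for *Ednra* in the comparisons with endothelium. It holds in all 3 comparisons for *Nos3*, which was below 100 on every podocyte and mesangial array. These comparisons share groups of arrays and are not independent of each other, and those with mesangial cells also set +/- controls against +/+ controls.

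**Figure D4:**
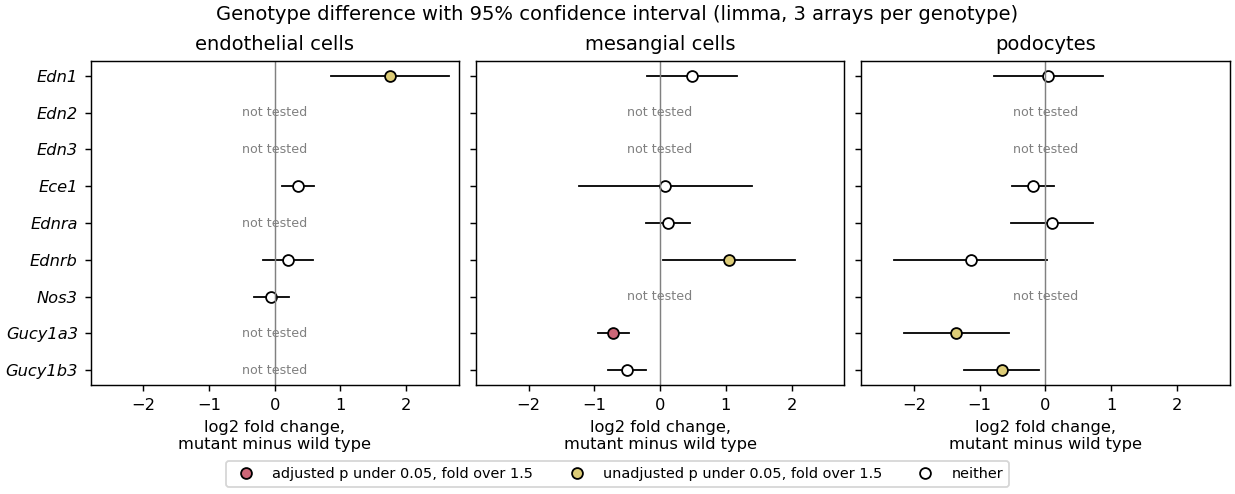
Genotype difference (log2 fold change, mutant minus wild type) of each of the 9 genes within endothelial cells, mesangial cells and podocytes, with the 95% confidence interval from limma over 3 arrays per genotype. Filled red marks the 1 call (*Gucy1a3*, -0.71 in mesangial cells), yellow a pass of the unadjusted screen only, white neither, and genes below the signal minimum are marked as not tested.

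The genes around the 9 were read from 6 lists. In the list of cyclic GMP synthesis, effectors and breakdown, 14 of 22 genes were tested in mesangial cells, and 2 fell and 0 rose, where 2.20% of all clusters were called. *Mrvi1*, whose product carries the cyclic GMP kinase signal to the calcium store, read 169 to 194 in mutant and 284 to 313 in wild type arrays (log2 fold change -0.72, SE 0.09, adjusted p = 0.0147). *Pde5a*, the phosphodiesterase that degrades cyclic GMP in smooth muscle, read 266 to 334 in mutant and 456 to 583 in wild type arrays (log2 fold change -0.76, SE 0.13, adjusted p = 0.0391). *Pde9a*, another phosphodiesterase of cyclic GMP, passed the screen in the other direction, at 190.5 to 300.1 in mutant and 105 to 174 in wild type arrays (log2 fold change 0.68, SE 0.24, adjusted p = 0.172). On these mesangial arrays the 9 mesangial markers summed to 8969 to 9892 in mutant and 11035 to 12495 in wild type cells. Of them 5 were lower on all mutant arrays, 3 overlapped and *Meis1* was higher on all, and their part in these values was not tested. The list's median log2 fold change was -0.10, against -0.02 over all clusters tested. In podocytes 12 of the 22 were tested and none was called, while *Gucy1a2*, *Npr1*, *Npr3* and *Pde5a* passed the screen, all lower in mutants (list median -0.34 against -0.04 over all clusters). Over all clusters 0.0578% were called there. The screen was passed by 5.61%, and 526 of these 679 clusters were lower in mutants. Mesangial marker sums (1254 to 3666 against 3829.5 to 4729.6) and endothelial marker sums (1112 to 3197 against 4962 to 6580.5) were lower on the same mutant arrays, and their part in these values was not tested. *Npr3*, the clearance receptor of natriuretic peptides and a gene strong in podocytes, read 489 to 1012 in mutant and 1455 to 1624 in wild type arrays (log2 fold change -1.07, SE 0.25, adjusted p = 0.162). *Npr1*, the receptor cyclase for atrial natriuretic peptide, read 246 to 357 in mutant and 424 to 612 in wild type arrays (log2 fold change -0.80, SE 0.19, adjusted p = 0.173). In endothelium 0 of the 10 tested were called, where 1.13% of all clusters were.

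In the list of nitric oxide synthesis, its cofactor and arginine supply, 26 genes long, 1 of 19 tested fell in mesangial cells, against the 2.20% of all clusters called. This was *Pts*, an enzyme of the synthesis of tetrahydrobiopterin, the cofactor of nitric oxide synthases, which read 161 to 216 in mutant and 353 to 365 in wild type arrays (log2 fold change -0.92, SE 0.12, adjusted p = 0.0179). Mesangial marker sums were lower on the same mutant arrays, as given for the cyclic GMP list, and their part in the *Pts* difference was not tested. Of 20 tested in podocytes and 21 in endothelium none was called, where 0.0578% and 1.13% of all clusters were. The screen was passed by 5.61% and 3.82% of all clusters there. *Ddah1*, which degrades the inhibitor asymmetric dimethylarginine, passed the screen in endothelium, at 309.7 to 386 in mutant and 87.3 to 247 in wild type arrays (log2 fold change 1.33, SE 0.33, adjusted p = 0.110). Of 12 endothelial markers 5, and of 11 dissociation response genes 3, were higher on all mutant endothelial arrays and the others overlapped. Their part in the *Ddah1* difference was not tested. *Nostrin*, an endothelial partner of the synthase, passed it in podocytes with lower values on mutant arrays, at 57.1 to 215 in mutant and 311 to 417 in wild type arrays (log2 fold change -1.47, SE 0.46, adjusted p = 0.231), beside the lower endothelial marker sums there. List medians were -0.13, -0.19 and -0.01 in mesangial cells, podocytes and endothelium, against -0.02, -0.04 and 0.07 over all clusters.

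The list of receptor signalling and contraction, 32 genes with *Gnaq*, *Plcb* and *Itpr* genes among them, had no call in any cell type (30, 29 and 26 genes tested in mesangial cells, podocytes and endothelium). In the same order 2.20%, 0.0578% and 1.13% of all clusters were called, and 5.19%, 5.61% and 3.82% passed the screen. *Trpc6*, a calcium channel linked to hereditary glomerulosclerosis, passed the screen in mesangial cells, at 73.9 to 147 in mutant and 187 to 261 in wild type arrays (log2 fold change -1.14, SE 0.26, adjusted p = 0.0723). *Rgs2*, a brake on Gq signalling, passed it in podocytes together with *Prkca* and *Plcb1*, at 322 to 632 in mutant and 916 to 1196 in wild type arrays (log2 fold change -1.10, SE 0.26, adjusted p = 0.167). Mesangial marker sums were lower on the mutant mesangial arrays, and mesangial and endothelial marker sums on the mutant podocyte arrays, as given for the cyclic GMP list. Their part was not tested. The list medians were -0.16, -0.28 and 0.03. Of the 9 genes of endothelin processing and breakdown, 4, 6 and 4 were tested in mesangial cells, podocytes and endothelium. None was called or passed the screen, beside the shares of all clusters given above. In the list of 21 transcription factors known to act on *Edn1* or *Nos3* there was no call, and 2 of 20 tested in podocytes, *Epas1* and *Ets1*, passed the screen with lower values in mutants, on arrays where 11 of the 12 endothelial markers were lower on all mutant arrays too and 5.61% of all clusters passed the screen. The part of endothelial RNA in these values was not tested. In endothelium, where *Edn1* differed most, 0 of the 19 factors tested passed the screen, which 3.82% of all clusters passed (list median 0.17 against 0.07 over all clusters). Of the 21, *Fos*, *Jun* and *Junb* also stand in the dissociation list.

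Among 19 genes of other vasoactive peptides and their receptors, 1 of 11 tested rose in mesangial cells and 1 of 8 in endothelium, where 2.20% and 1.13% of all clusters were called. *Ptgs2*, the inducible cyclooxygenase, read 247 to 526 in mutant and 57.0 to 62.7 in wild type arrays (log2 fold change 2.58, SE 0.26, adjusted p = 0.00843) in mesangial cells, with the wild type arrays at the floor. Of the 11 dissociation response genes, 5 were higher on all mutant than on all wild type mesangial arrays (*Fosb*, *Junb*, *Egr1*, *Ier3* and *Nr4a1*), 0 were lower on all and 6 overlapped, while their sums overlapped (1963 to 2767 against 2205 to 2332). Their part in the *Ptgs2* difference was not tested. *Ace*, angiotensin converting enzyme, read 156 to 229.8 in mutant and 84.8 to 103 in wild type arrays (log2 fold change 1.06, SE 0.16, adjusted p = 0.0189) in endothelium. Of 12 endothelial markers 5, and of 11 dissociation response genes 3, were higher on all mutant arrays there, and their part in the *Ace* difference was not tested. *Adm*, the vasodilator adrenomedullin, passed the screen in mesangial cells at 149.8 to 176 in mutant and 59.4 to 114 in wild type arrays (log2 fold change 1.03, SE 0.23, adjusted p = 0.0669). It passed the screen in podocytes too, at 204 to 399.6 in mutant and 142 to 199 in wild type arrays (log2 fold change 0.69, SE 0.25, adjusted p = 0.293). There its receptor genes *Calcrl*, *Ramp2* and *Ramp3* passed the screen with lower values in mutants, and *Calcrl* read 93.8 to 551 in mutant and 605 to 932 in wild type arrays (log2 fold change -1.94, SE 0.57, adjusted p = 0.214). *Calcrl* passed it with lower values in mutant mesangial cells too, at 609 to 747 in mutant and 857 to 1366 in wild type arrays (log2 fold change -0.59, SE 0.19, adjusted p = 0.148). Wild type mesangial array C had an endothelial marker sum of 8991, against 3584 and 3948 on arrays A and B, and its part in this difference was not tested. *Ramp3* passed it in endothelium in the other direction, at 756 to 990.3 in mutant and 439.5 to 636 in wild type arrays (log2 fold change 0.65, SE 0.16, adjusted p = 0.113). The endothelial marker sums were lower on the mutant podocyte arrays (1112 to 3197 against 4962 to 6580.5), and their part in these receptor values was not tested. The list medians were -0.27 in mesangial cells, -0.41 in podocytes and 0.33 in endothelium, and 1 of its genes, *Agtr1a*, is also on the list of mesangial markers.

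The 5 list genes named as called kept their direction when each of the 6 arrays of the comparison was left out in turn. *Ptgs2* kept its call throughout (adjusted p = 0.0108 to 0.0392). *Pts*, *Mrvi1* and *Ace* lost it in 4 of the 6 fits, with adjusted p of up to 0.0743, 0.0765 and 0.0972, and *Pde5a* in 5, with adjusted p of up to 0.138. *Pde5a* also missed the threshold with no signal minimum (adjusted p = 0.0603) and after a further quantile normalization (adjusted p = 0.0607), and *Ace* with no signal minimum (adjusted p = 0.0720).

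For each of the 7 genes above the minimum, the clusters with the nearest pattern over the 18 arrays were found among 6594 others by Pearson's r of the log2 signals. These r values are descriptions over arrays that share cell types, and most of them follow the cell type. *Gucy1a3* was nearest to *S1pr3* (0.996), *Itga4* (0.989) and *Itga8* (0.988), the last a marker of the mesangium. *Gucy1b3* was nearest to *Dock10* (0.995), *Epha7* (0.992) and *Nt5e* (0.992), and *Ednra* to *Aldh2* (0.983) and 2 clusters of *Cacna2d1* (0.980 and 0.978). *Ece1* was nearest to *Pla2g16* (0.977), *Arhgap29* (0.972) and the endothelial receptor *Tie1* (0.964), and *Nos3* to *Pik3c2b* (0.967), *Robo4* (0.958) and *Ushbp1* (0.955), of which *Robo4* is a vascular guidance receptor. *Ednrb* was nearest to *Itga6* (0.957), *Upp1* (0.952) and the apelin receptor *Aplnr* (0.949). *Edn1* had the loosest match of the 7, with *Camk2d* (0.912), *Igbp1* (0.895) and *Ubr3* (0.894).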

How the data were processed

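The authors deposited linear intensity values per transcript cluster, which per the labels were made by RMA in Expression Console. The methods name GeneSpring 12.6.1 for the analysis, while the series design speaks of Exon ST arrays with GeneBASE, against the file header (Mouse Gene ST, mm9). The 18 columns of a second form, log2 signal minus the cluster median, were not used. RNA was amplified with Ribo-SPIA chemistry before hybridisation, and the number of arrays limits the precision. The RNA-seq was not analysed here. The podocyte reporter is not reported here.

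Signals were log2 transformed and fitted with limma 3.58.1 in R 4.3.3 (lmFit, eBayes), on 6 arrays for each genotype comparison and on 18 for differences between cell types and between genotype effects. Clusters needed a signal of 100 on at least 1 array of the fit. Calls needed a Benjamini-Hochberg adjusted p under 0.05 over all clusters and a fold over 1.5. Where a gene has several clusters the brightest is used, though each of the 9 had 1. The code was tested on simulated data. The members, gene lists, motifs and tests were chosen with earlier results of these data known. Named besides the 9 genes and *Cd2ap* are, by rule, up to 5 called genes per list and comparison and the 3 nearest patterns per gene, and genes given as passing the screen only, single markers and printed promoters were chosen after their values were seen. A marker list for leukocytes was read too and summed to 424 to 909 over the 18 arrays. Alternatives were the signal minimum, the variance model, 2 scalings, the arrays in the fit, the unadjusted screen and each array left out. Promoters come from RefSeq on GRCm38.p6.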

Additional observations from a re-analysis of the deposited data

How the results depend on the processing

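Across settings other than leaving out an array, 102 of 109 values of the genotype differences of the 9 genes, 134 of 147 between cell types and 105 of 105 between genotype effects kept their direction and side of the threshold, as did 77 of 94, 114 of 126 and 236 of 252 values with 1 array left out. The signal minimum, the variance model, the unadjusted screen and the choice of arrays for the spread leave the log2 fold change itself unchanged. Under those settings only the call could move, so the counts are no measure of how steady the direction is. The direction turned for *Nos3* in endothelium with array medians subtracted (0.022), and, among mutant arrays, for *Edn1* in endothelium minus mesangium (1.20) and *Ednrb* in podocytes minus mesangium (-0.78). The counts of calls moved more, and the cause was not tested. With no signal minimum they were 154 in mesangial cells, 0 in podocytes (1 test over all 28856 clusters) and 68 in endothelium, with the unadjusted screen 595, 679 and 433. With array medians subtracted they were 4 in podocytes and 214 in endothelium, and 825 and 249 for endothelium minus podocytes and minus mesangium in the test of unequal effects, where a further quantile normalization gave 77 for the first. In that test the scalings shifted the median of all clusters by 0.10 and -0.10 for endothelium minus podocytes, and the share of calls that were positive ran from 71.4% to 96.5% (88.2% as reported); for endothelium minus mesangium it ran from 53.6% to 80.7% (66.0%), and for podocytes minus mesangium from 27.1% to 47.2% (28.9%). In endothelium itself it was 82.1% after quantile normalization (93.0% as reported) and in podocytes 75.0% with array medians subtracted (85.7%). One fit of all 18 arrays called 436 clusters in podocytes. Leaving out each array gave 50 to 279 calls in mesangial cells, 0 to 344 in podocytes (344 without mutant array A) and 49 to 217 in endothelium, and 30 to 1428, 85 to 174 and 44 to 390 in the tests of endothelium minus podocytes, endothelium minus mesangium and podocytes minus mesangium (1428 and 390 without podocyte mutant array A). Small differences that turned their sign when an array was left out ranged from -0.30 to 0.79 for *Ece1* in mesangial cells, -0.041 to 0.47 and -0.18 to 0.30 for *Edn1* and *Ednra* in podocytes, -0.13 to 0.020 for *Nos3* in endothelium, and -0.22 to 0.19 for *Edn1* in wild type endothelium minus mesangium. For unequal effects they ranged from -0.42 to 0.061 and -0.014 to 0.14 for *Ednra* and *Nos3* in endothelium minus podocytes, -0.44 to 0.66 for *Ece1* in endothelium minus mesangium, and -0.30 to 0.18, -0.98 to 0.11 and -0.33 to 0.094 for *Ednra*, *Ece1* and *Gucy1b3* in podocytes minus mesangium, where *Ece1* was called without mesangial wild type array C (adjusted p = 0.00667). As each gene has 1 cluster, other clusters gave no value. No paired analysis was possible because the groups share no replicate numbers in the labels.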
